A study of Arabidopsis thaliana with 123 samples.

Results

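The 10 genes described here encode the enzymes that make and inactivate gibberellin in Arabidopsis thaliana, and they were taken by locus from a table of 37336 genes. They are 3 gibberellin 20-oxidases (GA20OX1, AT4G25420; GA20OX2, AT5G51810; GA20OX3, AT5G07200), 3 gibberellin 3-oxidases (GA3OX1, AT1G15550; GA3OX2, AT1G80340; GA3OX4, AT1G80330) and 4 gibberellin 2-oxidases (GA2OX1, AT1G78440; GA2OX2, AT1G30040; GA2OX3, AT2G34555; GA2OX6, AT1G02400). The study profiled poly(A) RNA of seeds dissected from siliques, with the seeds of 4 siliques pooled in each sample, in 123 libraries of 11 genotypes and 43 groups. Of the groups, 37 had 3 libraries and 6 had 2.

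All lines carry the Col-0 background, and plants of a round grew together with a photoperiod of 16 h. In batch A, an experimental round of its own, Col-0 wild type was sampled at 12, 14, 16, 18, 20, 22 and 24 days after pollination (DAP) and as dry seed, and abi3-6, a mutant of the seed maturation regulator ABI3, at 16, 18, 20 and 22 DAP. In batch B, a later round, wild type was sampled at 18, 20, 22 and 24 DAP and as dry seed, and abi3-6 at 24 DAP and as dry seed. The same round held abi3-12, another abi3 allele, at 18 to 24 DAP and dry, and dog1-4, a knock-out of the dormancy gene DOG1, at 20 to 24 DAP and dry. It also held abi3-12 dog1-4, and abi3-12 dog1-4 cyp707a2, which in addition carries a mutation in the gene of an abscisic acid hydroxylase, both at 18 to 24 DAP and dry. Dry seed alone was sampled for aba2-1, which is impaired in abscisic acid synthesis, for its combinations with dog1-4, with abi3-12 and with both, and for L2-1, Col-0 carrying the DOG1 allele of Cvi as a transgene. The labels call the replicates biological and describe them as pools, and they do not say whether they came from separate plants, so p-values measure the spread between these samples.

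Gibberellins are diterpene hormones that promote embryo growth and germination, and abscisic acid opposes them in the maturing seed. The 20-oxidases carry out the successive oxidations that lead to the direct precursors, the 3-oxidases turn these into the bioactive hormones, and the 2-oxidases inactivate both the hormones and their precursors. GA3OX1 and GA3OX2 are known for their activity in germinating seed, GA3OX4 for its expression in developing seed, and GA2OX2 for inactivating gibberellin in imbibed seed kept dark.

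ABI3 belongs to the B3 family, some of whose members bind the RY motif. Factors of the abscisic acid pathway bind elements with an ACGT core. For this reason the promoters of 6 genes that carry the results below are shown. Each is the 300 bases before the annotated start in RefSeq's TAIR10.1 genome, written 5′ to 3′ on the gene's own strand. Capitals mark matches on either strand to CATGCA, the RY core, or to ACGTG, the core of abscisic acid response elements. The windows on the minus strand are chr4:12992586-12992885 for GA20OX1, chr5:21056882-21057181 for GA20OX2, chr5:2245340-2245639 for GA20OX3 and chr1:30199538-30199837 for GA3OX4. Those on the plus strand are chr1:10537157-10537456 for GA2OX2 and chr1:486500-486799 for GA2OX6.
GA20OX1: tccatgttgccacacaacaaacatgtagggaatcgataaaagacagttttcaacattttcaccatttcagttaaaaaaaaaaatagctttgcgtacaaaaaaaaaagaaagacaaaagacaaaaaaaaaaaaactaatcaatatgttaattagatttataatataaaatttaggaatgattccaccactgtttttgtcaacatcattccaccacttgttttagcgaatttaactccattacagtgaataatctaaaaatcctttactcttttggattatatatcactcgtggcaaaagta
GA20OX2: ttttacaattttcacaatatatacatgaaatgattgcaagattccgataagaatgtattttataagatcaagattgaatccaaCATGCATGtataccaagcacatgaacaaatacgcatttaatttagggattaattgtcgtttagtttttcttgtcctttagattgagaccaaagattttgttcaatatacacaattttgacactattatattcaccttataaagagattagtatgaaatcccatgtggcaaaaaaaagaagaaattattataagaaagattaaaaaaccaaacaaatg
GA20OX3: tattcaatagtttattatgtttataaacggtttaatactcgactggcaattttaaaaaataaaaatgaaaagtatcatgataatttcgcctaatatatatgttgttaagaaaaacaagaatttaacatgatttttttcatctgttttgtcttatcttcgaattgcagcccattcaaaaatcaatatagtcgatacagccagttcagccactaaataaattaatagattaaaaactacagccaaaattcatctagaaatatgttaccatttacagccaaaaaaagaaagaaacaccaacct
GA3OX4: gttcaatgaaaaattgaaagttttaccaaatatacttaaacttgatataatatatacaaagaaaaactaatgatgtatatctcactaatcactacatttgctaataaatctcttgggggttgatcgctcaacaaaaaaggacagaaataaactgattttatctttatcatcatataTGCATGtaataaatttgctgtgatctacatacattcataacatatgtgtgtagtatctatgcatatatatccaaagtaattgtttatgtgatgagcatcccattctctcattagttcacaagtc
GA2OX2: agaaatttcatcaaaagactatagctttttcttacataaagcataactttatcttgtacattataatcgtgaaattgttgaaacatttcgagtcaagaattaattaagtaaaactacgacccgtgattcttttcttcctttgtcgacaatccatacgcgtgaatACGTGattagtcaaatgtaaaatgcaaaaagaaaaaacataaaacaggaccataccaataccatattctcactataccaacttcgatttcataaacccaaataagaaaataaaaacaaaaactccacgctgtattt
GA2OX6: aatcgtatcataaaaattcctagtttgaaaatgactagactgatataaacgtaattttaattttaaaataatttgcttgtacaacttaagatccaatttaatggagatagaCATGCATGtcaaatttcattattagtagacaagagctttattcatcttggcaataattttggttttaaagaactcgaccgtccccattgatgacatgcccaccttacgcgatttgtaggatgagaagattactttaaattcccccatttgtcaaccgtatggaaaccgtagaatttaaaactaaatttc

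GA20OX2 and GA2OX6 each held CATGCA on both strands in an overlapping pair that reads CATGCATG, and GA3OX4 held a match on the opposite strand, which reads TGCATG. GA2OX2 held ACGTG at position -136 from the start. Of the 9 promoters searched, the other 5 held neither, and none of the 9 held the G-box CACGTG, which contains ACGTG. Among 27443 promoters of protein-coding genes, windows of the same length held CATGCA in 10.3%, ACGTG in 25.6% and CACGTG in 7.09%. A match describes the letters in the window and does not show that a factor binds there.

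The libraries held 2577281 to 20277489 counts, with a median of 11678153. Levels are given in CPM, counts scaled to a common library size with TMM factors, which correct for a few abundant genes taking up a library. Tests are edgeR quasi-likelihood tests across all genes with Benjamini-Hochberg adjustment, and a difference with an adjusted p under 0.05 is termed called. Of the 10 genes, 8 passed the filter on low counts in each batch. GA3OX1, GA3OX2 and, in batch B, GA3OX4 did so only through mutant groups, being at or near 0 in wild type. A lower call against wild type was hardly possible for them. Counts of higher calls that include these genes therefore do not test a direction. GA2OX1 was at 0 in all 123 libraries, and GA2OX3 had counts in 5, of at most 10. GA20OX3 and GA2OX2 had counts in all 123 libraries, GA20OX2 in 121, GA20OX1 in 104, GA2OX6 in 87, GA3OX4 in 41, GA3OX2 in 40 and GA3OX1 in 23. A library at 0 for a gene still allows up to 3 counts. Where a group was at 0 throughout, a fold is given as a lower bound against 3 counts per library, for counting error only. Of the 1230 values of these genes by library, 563 were 0, 2 were 1, 18 were 2 and 31 were 3. Counts of 1 were thus almost absent, and the sources do not say why. The bounds and the exact counting intervals take reads as counted singly, so the bounds may be too high and the intervals too narrow. GA3OX4 lies at chr1:30198061-30199537 and its neighbour GA3OX2 at chr1:30200466-30202349. GA3OX4 overlaps a long non-coding RNA, AT1G80325, on the same strand, so their reads may not be told apart.

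Seed storage proteins took 348000 to 741500 CPM of wild-type libraries at 12 and 18 DAP. Of 3 genes of the silique wall, FUL had 4 counts and IND 6 over all libraries, while ADPG1 was read in 50. DOG1 was at 33.0 CPM (SD 8.15) in dry wild-type seed and at 40.1 CPM (SD 2.6) in dry L2-1 seed, a difference not tested here. Over all groups that carry dog1-4 it was between 0.681 and 15.3 CPM, the highest at 20 DAP and 0.776 to 1.12 CPM in dry seed. ABI3 transcript was still read in the abi3 lines (143 CPM in dry abi3-6, 118 in dry abi3-12, 200.2 in wild type), and ABA2 transcript in dry aba2-1 (1.74 against 1.92 CPM), so these counts check neither mutation. CYP707A2 was at 0.592 and 6.66 CPM in abi3-12 dog1-4 cyp707a2 at 18 and 20 DAP, under the 14.8 and 50.8 CPM of abi3-12 dog1-4. From 22 DAP on the order turned, with 14.2 against 6.36 CPM at 22 DAP and 9.98 against 5.48 CPM in dry seed. Transcript was thus read in the line at every stage, and its level does not check this mutation either.

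In wild type of batch A, GA20OX3, GA20OX2 and GA3OX4, which act in synthesis, were high in the young seed and fell by 18 DAP, while GA2OX6, of the inactivating enzymes, rose. GA20OX3 was at 637, 611 and 530 CPM at 12 DAP, at 217, 190 and 193 CPM at 16 DAP, and at 11.3, 6.95 and 18.9 CPM at 18 DAP in batch A. The 3 stages did not overlap, and 18 DAP was 5.60 ± 0.24 (SE) lower than 12 DAP on the log2 scale (adjusted p = 1.05e-16, edgeR quasi-likelihood test). GA20OX2 was at 87.8, 72.3 and 37.5 CPM at 12 DAP and at 3.36, 2.42 and 2.84 CPM at 18 DAP. It fell by 4.49 ± 0.34 on the log2 scale (edgeR adjusted p = 1.04e-11), again with no overlap. GA3OX4 was the single 3-oxidase read in young wild-type seed, at 9.77, 15.2 and 18.5 CPM at 12 DAP and at 0, 1.21 and 0.836 CPM at 18 DAP. It fell by 4.50 ± 0.47 on the log2 scale (edgeR adjusted p = 1.15e-08). GA3OX1 was at 0 in all wild-type libraries of both batches, and GA3OX2 in all but a library of 20 DAP at 0.110 CPM.

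GA2OX6 moved the other way. It was at 0.333, 0.292 and 0.280 CPM at 12 DAP, at 0 in every library of 14 DAP, and at 7.33, 6.34 and 4.51 CPM at 18 DAP. The libraries of 18 DAP stood above all earlier ones, and the ratio to 12 DAP was 20.7 (95% exact counting interval 10.5 to 46.2, edgeR adjusted p = 8.13e-08). GA2OX2 stayed between 2.34 and 3.70 CPM from 12 to 20 DAP and did not pass the test from 12 to 18 DAP. In dry seed it was at 5.58, 6.27 and 5.97 CPM, above all libraries of 18 DAP, and had risen by 1.17 ± 0.19 on the log2 scale (edgeR adjusted p = 8.18e-06). GA20OX1, at 0.666, 1.17 and 0.934 CPM at 12 DAP and at 0 in all 3 libraries of 18 DAP, was at least 2.09-fold lower at 18 DAP (edgeR adjusted p = 0.0019).

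Between 12 and 18 DAP, 5 of the 8 tested genes were called, 1 higher and 4 lower, where 73.1% of all genes tested were called, 33.3% higher and 39.8% lower. This pair of stages was chosen for comparison after its values were seen. Over all 8 stages of batch A, 6 of the 8 differed, against 92.2% of all genes, and over the 5 stages of batch B, 5 of the 8, against 79.0%. GA20OX1 was the weakest of these in batch A (edgeR adjusted p = 0.0169) and missed the threshold without the second 12 DAP library (0.0636). Per kilobase of exon, the level at 12 DAP was 369 CPM for GA20OX3, 42.2 for GA20OX2, 13.6 for GA3OX4, 1.50 for GA2OX2, 0.598 for GA20OX1 and 0.204 for GA2OX6. At 18 DAP in batch A the order was GA20OX3 with 7.71, GA2OX6 with 4.10, GA20OX2 with 1.84, GA2OX2 with 1.29 and GA3OX4 with 0.638. Seed-coat markers moved as well. Their summed level over 6 genes, of which TT12 was at 0 throughout, reached 455 to 502 CPM at 12 DAP, but 309 to 421 CPM by 18 DAP, and dry seed had 7.40 to 7.89 CPM. The sum of 3 endosperm markers went from 11.7 to 14.9 CPM at 12 DAP to at most 0.836 CPM at 18 DAP. Over all libraries 1 gene held most counts of each sum. TT10 had 206298 seed-coat counts and MUM4, the next, 24063. SUC5 had 1163 endosperm counts and ZOU, the next, 57. The part of these cell types in the course was not tested, and in bulk seed fewer cells of a type and less RNA per cell cannot be told apart.

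**Figure D1:**
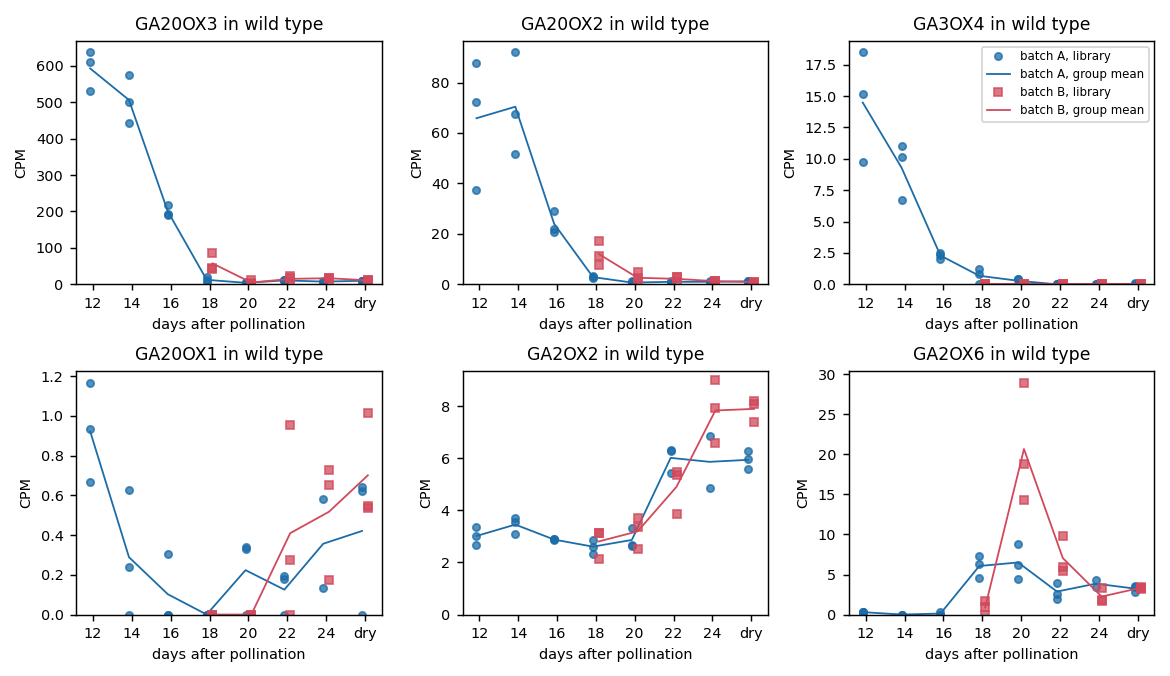
Levels of 6 gibberellin enzyme genes in wild-type seed, in CPM, by days after pollination, with a point per library and a line through the group means. GA20OX3 started at 530 to 637 CPM and GA20OX2 at 37.5 to 87.8 CPM in batch A (circles) and both were near the base by 20 DAP. GA2OX6 in batch B (squares) peaked at 14.2 to 29.0 CPM at 20 DAP.

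Of the 17 other genes of the pathway on the list used here, 12 passed the filter in batch A. From 12 to 18 DAP 10 of them changed, 1 higher and 9 lower, against 73.1% of all genes, 33.3% higher and 39.8% lower. The riser was ELA1, a cytochrome P450 that inactivates gibberellin, with a log2 change of 2.73 (edgeR adjusted p = 1.84e-16). AT3G47190, entered on the list as the 2-oxidase GA2OX10, was at 30.3 CPM at 12 DAP and at 0 at 18 DAP (edgeR adjusted p = 6.44e-09). Genes of inactivating enzymes thus moved in both directions over this span. From 18 DAP to dry seed in batch A, 6 of 12 changed, 2 higher and 4 lower, against 63.8% of all genes. KAO2, which completes the early part of the pathway, rose by 2.99 on the log2 scale, and GAMT2, a gibberellin methyltransferase, was at 18.6 CPM at 18 DAP and at 0 in dry seed.

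The batches did not run in step. At 18 DAP, GA20OX3 was at 85.5, 41.2 and 45.6 CPM in batch B, above the 6.95 to 18.9 CPM of batch A, and GA2OX6 at 0, 1.65 and 0.984 CPM, below the 4.51 to 7.33 CPM of batch A. Seed-coat markers summed to 914 to 989 CPM in batch B and to 309 to 421 CPM in batch A at that stage. From 18 DAP to dry seed in batch B, GA20OX3 fell by 2.34 ± 0.33 on the log2 scale (edgeR adjusted p = 5e-09) and GA20OX2 by 3.69 ± 0.39 (3.81e-13). Neither passed the test over the same span in batch A. GA2OX2 was called higher in dry seed in both batches, by 1.42 ± 0.25 in batch B (9.6e-07). GA2OX6 was called in opposite directions, lower by 0.89 ± 0.32 in batch A (edgeR adjusted p = 0.0201) and higher by 1.60 ± 0.55 in batch B (0.00913). In batch A the GA2OX6 call was lost without the first 18 DAP library (0.107) or the second dry one (0.0527), and with libraries scaled by their totals, where the change was -0.21 (0.595). In batch B it was lost when replicate number 1 (0.0771) or 3 (0.0638) was left out of all groups. In all, 4 of 8 genes were called over this span in batch A, against 63.8% of all genes, and 5 of 8 in batch B, against 66.6%. Of the 4 in batch A, GA20OX1 (0.421 CPM in dry seed, 0 at 18 DAP) overlapped between the stages and lost its call without the first 18 DAP library (0.0512), and GA3OX4 (0.0428 against 0.681 CPM) lost it without the second 18 DAP library (0.128) or the first dry one (0.0636). The change over this span differed between batches for 3 of the 4 genes that could be tested together, against 16.6% of all genes. Because stages of the same name differed between batches, every line is compared with wild type of its own batch.

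In abi3-6 seed, 3-oxidase transcripts that wild type lacked were present, and GA20OX1 was high from the first stage sampled. GA3OX2 was at 20.5 and 22.9 CPM in abi3-6 at 20 DAP and at 0, 0 and 0.110 CPM in wild type, a ratio of 555 (95% exact counting interval 99.1 to 21900, edgeR adjusted p = 4.03e-08). GA3OX1 was at 5.37 and 3.96 CPM at the same stage and at 0 in the 3 wild-type libraries, at least 13.1-fold higher (edgeR adjusted p = 8.89e-06). Both genes were called higher in abi3-6 at all 6 stages, and abi3-6 did not overlap wild type at any of them.

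In batch A all 3 3-oxidases of abi3-6 had their highest mean at 20 DAP, and at other stages they did not move together. From 18 to 22 DAP mean GA3OX2 went from 4.54 to 2.91 CPM and mean GA3OX1 from 0.366 to 1.94 CPM. GA3OX2 was at 1.49 and 0.488 CPM at 16 DAP, at 5.61 and 3.48 CPM at 18 DAP, at 2.69 and 3.12 CPM at 22 DAP, and at 3.16, 4.95 and 5.62 CPM in dry seed. The libraries of 20 DAP stood above those of every other stage. GA3OX1 in dry abi3-6 seed was at 1.54, 3.81 and 2.47 CPM, at least 9.81-fold above wild type (edgeR adjusted p = 2.61e-05), and GA3OX2 was at least 17.2-fold above it (1.42e-07). GA3OX4 went from lower to higher. At 16 DAP it was at 0.110 and 0 CPM in abi3-6 against 2.50, 2.04 and 2.35 CPM in wild type, 41.9-fold lower (95% exact counting interval 11.1 to 354, edgeR adjusted p = 1.92e-05). At 20 DAP it was at 3.04 and 3.96 CPM against 0.456, 0.399 and 0 CPM, higher by 3.63 ± 0.66 on the log2 scale (3.48e-05). The counts of the overlapping AT1G80325 in these groups were 39 to 49 in abi3-6 at 16 DAP and 18 to 23 at 20 DAP. The weakest of these calls, GA3OX1 at 16 DAP, rested on 0.221 and 0.434 CPM and was lost without the second abi3-6 library (0.0549). DESeq2 did not call GA3OX1 in abi3-6 at 16, 18 and 24 DAP or in dry seed (adjusted p = 0.195, 0.19, 0.537 and 0.567).

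**Figure D2:**
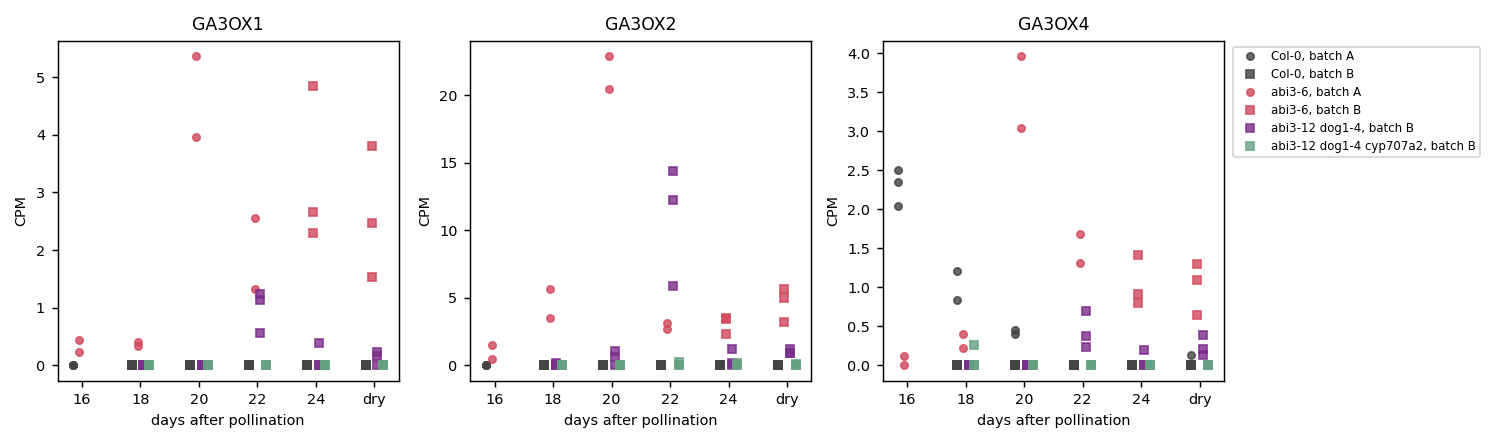
Levels of the 3 gibberellin 3-oxidase genes, in CPM, by days after pollination in wild type (Col-0), abi3-6, abi3-12 dog1-4 and abi3-12 dog1-4 cyp707a2, with a point per library (circles batch A, squares batch B). GA3OX2 reached 20.5 and 22.9 CPM in abi3-6 at 20 DAP and 5.87 to 14.4 CPM in abi3-12 dog1-4 at 22 DAP, while wild type stayed at or near 0.

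Among the 20-oxidases, GA20OX1 was at 9.93 and 7.43 CPM in abi3-6 at 16 DAP, at 11.5 and 10.5 CPM at 18 DAP, and at 9.96, 12.6 and 12.0 CPM in dry seed. Wild type was at most 0.307 CPM at 16 DAP, at 0 at 18 DAP, and at 0.549, 1.02 and 0.538 CPM in dry seed. No stage overlapped. The gene was at least 24.8-fold higher at 18 DAP (edgeR adjusted p = 1.55e-09) and higher by 4.01 ± 0.27 on the log2 scale in dry seed (5.85e-21). GA20OX3, the main 20-oxidase of wild type, changed sign. It was lower by 0.72 ± 0.21 on the log2 scale at 16 DAP (0.00414), where abi3-6 had 99.8 and 143 CPM and wild type 190 to 217 CPM, and higher by 1.19 ± 0.24 at 18 DAP (8.66e-05). It was not called at 20 DAP. At 22 DAP it was then lower by 2.46 ± 0.34, at 24 DAP by 3.25 ± 0.44 and in dry seed by 2.68 ± 0.43 (edgeR adjusted p = 4.86e-07, 1.28e-09 and 7.25e-08). In dry abi3-6 seed GA20OX3 was at 1.86, 1.70 and 1.55 CPM, well under the 8.87 to 12.0 CPM of wild type. The call at 16 DAP was lost without the first abi3-6 library (-0.48, 0.112) and changed sign when libraries were scaled by their totals (0.11). GA20OX2 was called higher at 18, 20 and 24 DAP and in dry seed, where it was at 2.75 to 3.56 CPM against 0.718 to 1.10 CPM. Its call at 18 DAP was lost without the second wild-type library (0.062), and that at 24 DAP without replicate number 2 (0.0842) or 3 (0.0552) in all groups.

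The 2-oxidases of abi3-6 did not share a direction. GA2OX6 was at 0.219 and 0 CPM in abi3-6 at 18 DAP, under all wild-type libraries, and lower by 5.53 ± 0.57 on the log2 scale (edgeR adjusted p = 1.23e-08). At 20 DAP it was 48.1-fold lower (95% exact counting interval 16.2 to 236, 7.24e-08). From 22 DAP on it was not called, with 1.13, 2.92 and 2.12 CPM in dry abi3-6 seed against 3.23 to 3.48 CPM. GA2OX2 was lower by 1.13 ± 0.24 at 16 DAP (0.000175), and higher by 0.68 ± 0.16 at 22 DAP (0.000555) and by 0.43 ± 0.18 in dry seed (0.0277). With libraries scaled by their totals the change at 16 DAP was -0.30 and not called (0.307). The call in dry seed was lost without the first wild-type (0.0833) or first abi3-6 library (0.101). A call at 20 DAP, higher by 0.49 ± 0.21 (0.0444), overlapped wild type and was lost without the second (0.0982) or the third (0.126) wild-type library or the first abi3-6 one (0.362).

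Over the 4 stages of batch A, 25 of 32 tests of these genes in abi3-6 were called, 19 higher and 6 lower, where 74.4% of the tests of all genes were, 39.9% higher and 34.5% lower. In batch B it was 13 of 16, 11 higher and 2 lower, against 77.7%, 42.6% higher and 35.0% lower. The shares called are near the background. By stage the background was 66.5%, 74.5%, 79.2% and 77.4% at 16, 18, 20 and 22 DAP, and 77.6% and 77.7% at 24 DAP and in dry seed. The median log2 change of the 8 genes in dry seed was 2.96, or 1.91 with the genes at 0 in wild type set at their bounds, and that of all genes was 0.17. The 3-oxidases, at 0 in wild type there, could not fall and enter both medians, so these do not test a direction. GA3OX1 and GA3OX2 are also among the higher calls of every stage. Of the other genes of the pathway, 29 of 48 tests in batch A were called, 10 higher and 19 lower, and 12 of 20 in batch B, all lower. In dry seed ELA1 fell by 7.42 on the log2 scale, the most of these pathway genes (edgeR adjusted p = 3.81e-29), from 67.4 to 0.401 CPM. Storage proteins summed to 3618 to 7304 CPM in dry abi3-6 seed and to 47400 to 54440 CPM in wild type. The 7 embryo markers summed to 38.1 to 47.1 against 19.5 to 22.5 CPM, and the seed-coat markers to 44.5 to 49.7 against 10.2 to 11.6 CPM. Over all libraries SCR had 49809 embryo counts and PLT2, the next, 3482, so embryo sums mainly follow SCR. Their part in the calls was not tested.

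In abi3-12, GA2OX2 and GA2OX6 were lower from 20 DAP on and GA20OX1 was higher from 18 to 24 DAP. GA2OX2 was at 0.786, 0.883 and 0.928 CPM in abi3-12 at 20 DAP against 2.50, 3.37 and 3.71 CPM in wild type, and at 0.708, 0.564 and 0.246 CPM in dry seed against 7.41, 8.21 and 8.07 CPM. The groups did not overlap from 20 DAP on, and wild type climbed over this span while abi3-12 did not. GA2OX2 was lower by 1.91 ± 0.34, 3.06 ± 0.31, 4.40 ± 0.32 and 3.90 ± 0.27 on the log2 scale at 20, 22 and 24 DAP and in dry seed (edgeR adjusted p = 5.29e-06, 1.86e-12, 1.21e-18 and 1.38e-19). The difference was deeper in dry seed than at 20 DAP, by 1.99 ± 0.50 (0.00474), a change of effect called for 10.4% of all genes and lost here without replicate number 2 (0.0937) or 3 (0.088) in all groups. GA2OX6 was lower at the same 4 stages, by 2.37 ± 0.40, 2.38 ± 0.45, 1.39 ± 0.51 and 1.53 ± 0.45 (1.9e-06, 2.06e-05, 0.0433 and 0.00598). At 20 DAP it was at 4.61, 4.16 and 2.79 CPM against 14.2, 18.8 and 29.0 CPM. The GA2OX6 calls at 24 DAP and in dry seed were lost when some replicate number was left out of all groups.

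The 3-oxidases of abi3-12 were at 0 in all libraries but 1, a library of 18 DAP with 0.429 CPM of GA3OX4. GA20OX1 was at 1.79 and 2.224 CPM at 18 DAP and at 1.80, 2.02 and 1.86 CPM at 20 DAP, where wild type was at 0. It was at least 2.60-fold and at least 4.72-fold higher (edgeR adjusted p = 1.04e-06 and 1.16e-08), and in dry seed, at 0.901, 1.21 and 1.31 CPM against 0.538 to 1.02 CPM, it overlapped wild type and was not called. Its call at 24 DAP was lost without replicate number 3 in all groups (0.0913), and that at 22 DAP with these groups fitted alone (0.0522). GA20OX3 was called at 18 DAP alone, at 154 and 128 CPM against 41.2 to 85.5 CPM, higher by 1.35 ± 0.32 (0.000723). Of 40 tests in abi3-12, 14 were called, 5 higher and 9 lower, against 30.6% of the tests of all genes, 15.4% higher and 15.2% lower. By stage it was 29.1%, 37.6%, 34.7% and 21.3% at 18 to 24 DAP and 30.4% in dry seed. A call of lower GA20OX2 at 20 DAP (0.0215) rested on overlapping groups and was lost when a replicate number was left out of all groups (adjusted p up to 0.703). GA2OX6 at 24 DAP (0.0433) missed the threshold without replicate number 1 (0.112), 2 (0.158) or 3 (0.253) in all groups. It also did so without the libraries under 5000000 counts (0.0918), with libraries scaled by their totals (0.0759) or with no filter (0.0512). In dry seed the GA2OX6 call was lost without replicate number 1 in all groups (0.0669). Of the other pathway genes, 19 of 50 tests were called, 6 higher and 13 lower. In dry seed AT5G58660, entered on the list as the 2-oxidase GA2OX9, alone was called, lower by 1.48 on the log2 scale (edgeR adjusted p = 8.37e-12). Markers moved too. Storage proteins summed to 333700 to 388000 CPM in abi3-12 at 18 DAP, under the 654400 to 741500 CPM of wild type, and seed-coat markers to 243 to 292 CPM at 20 DAP, under 506 to 548 CPM. In dry seed the embryo markers summed to 59.0 to 62.8 CPM, above the 19.5 to 22.5 CPM of wild type. The part of these markers in the calls was not tested.

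In dog1-4, GA20OX1, GA20OX3 and GA2OX2 were called higher and GA2OX6 lower at every stage sampled, some of them by a small margin. GA20OX3 was at 76.3, 57.0 and 61.8 CPM in dog1-4 at 20 DAP against 11.3, 2.85 and 0.371 CPM in wild type, and at 27.8, 36.4 and 30.1 CPM in dry seed against 8.87, 12.0 and 11.8 CPM. Every dog1-4 library stood above every wild-type library of its stage. The gene was higher by 3.81 ± 0.37, 2.33 ± 0.33, 1.03 ± 0.31 and 1.52 ± 0.32 on the log2 scale at 20, 22 and 24 DAP and in dry seed (edgeR adjusted p = 2.1e-12, 1.01e-07, 0.0138 and 0.000114). The difference was smaller in dry seed than at 20 DAP, by 2.29 ± 0.50 (0.00174), where 6.87% of all genes changed in effect. Without replicate number 3 in all groups the adjusted p of that change was 0.128, and the call at 24 DAP was lost without replicate number 1 (0.127) or 3 (0.089).

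GA20OX1 was at 3.48, 2.31 and 4.87 CPM in dog1-4 at 20 DAP, where wild type was at 0, and at 5.94, 5.07 and 5.89 CPM in dry seed. It was at least 8.88-fold higher at 20 DAP (edgeR adjusted p = 5.53e-12) and higher by 2.98 ± 0.29 on the log2 scale in dry seed (1.9e-12), without overlap at any stage. GA2OX6 was at 1.12, 0.926 and 1.35 CPM at 20 DAP against 14.2 to 29.0 CPM, and at 0 in all dog1-4 libraries of 24 DAP and dry seed. Wild type was at 3.23 to 3.48 CPM in dry seed, so dog1-4 was at least 15.2-fold lower (9.9e-10). GA2OX2 was higher, by 0.89 ± 0.23 at 20 DAP (0.00439) and by 0.71 ± 0.18 in dry seed (0.00152), at 11.7, 12.8 and 14.2 CPM. Leaving a replicate number out of all groups ended its calls at 20 DAP (number 3, 0.0813), at 22 DAP (number 2, 0.258) and at 24 DAP (number 1, 0.113, or 3, 0.0633), but not that in dry seed. GA3OX1 and GA3OX4 were at 0 in all dog1-4 libraries, and GA3OX2 was read at 22 DAP, at 0.468, 1.14 and 0.309 CPM, and in 1 library of dry seed, at 0.373 CPM.

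The GA3OX2 difference at 22 DAP was called (0.0479), at least 1.08-fold. It missed the threshold with a replicate block (0.0584), with no filter (0.0592) or without the shallow libraries (0.0672). It also did so without replicate number 1 (0.261) or 2 (0.38) in all groups, and with DESeq2 (adjusted p = 0.268). The call of higher GA20OX2 in dry seed (0.0187), at 1.80, 2.76 and 1.68 CPM, was lost without the second dog1-4 library (0.131) or the second (0.0668) or the third (0.0716) wild-type one. In all, 19 of 32 tests were called in dog1-4, 15 higher and 4 lower, where 19.0% of the tests of all genes were, 10.4% higher and 8.58% lower. The background was 12.5%, 17.8% and 15.2% at 20, 22 and 24 DAP, and in dry seed 5 of 8 were called against 30.6%. The median log2 change of the 8 genes in dry seed was 0.99, or 0.35 with genes at 0 in a group set at their bounds, and that of all genes was 0.00. The 3-oxidases, at 0 in wild type there, enter both medians, though no fall was possible for them. Of the other pathway genes, 11 of 40 tests were called, 8 higher and 3 lower. In dry seed CPS, the first committed enzyme, rose from 0.204 to 1.35 CPM (edgeR adjusted p = 0.0121). AT5G58660 (GA2OX9) fell there by 1.62 on the log2 scale (1e-12), as it did by 1.35 and 1.70 at 22 and 24 DAP. Storage proteins summed to 47600 to 59640 CPM and seed-coat markers to 9.40 to 10.9 CPM in dry dog1-4 seed, next to 47400 to 54440 and 10.2 to 11.6 CPM in wild type, and embryo markers to 23.6 to 28.0 against 19.5 to 22.5 CPM.

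**Figure D3:**
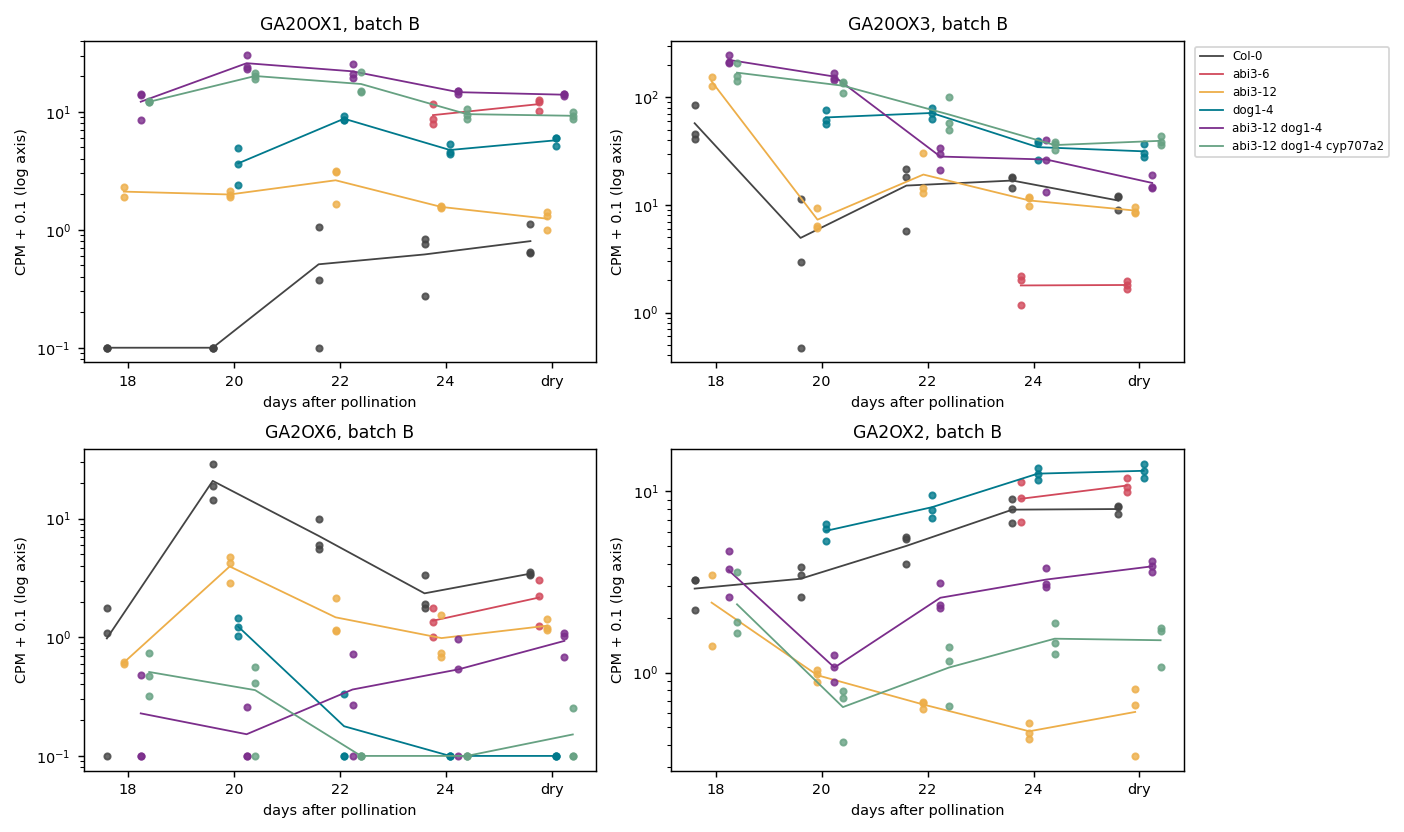
Levels of GA20OX1, GA20OX3, GA2OX6 and GA2OX2 in batch B, as CPM + 0.1 on a log axis, by days after pollination, with a point per library and a line through the means of each genotype. GA20OX1 was highest in abi3-12 dog1-4, at 23.1 to 30.0 CPM at 20 DAP where wild type was at 0, mean GA2OX6 was highest in wild type at each stage, and GA2OX2 in dog1-4 and wild type lay above the lines that carry abi3-12 from 20 DAP on.

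In abi3-12 dog1-4, GA20OX1 reached its highest level of the study and GA3OX2 was read again. GA20OX1 was at 24.1, 30.0 and 23.1 CPM at 20 DAP, at 25.4, 19.4 and 20.9 CPM at 22 DAP and at 14.0, 13.5 and 14.1 CPM in dry seed. All these libraries stood above every library of wild type, abi3-12 and dog1-4. The gene was at least 64.2-fold above wild type at 20 DAP (edgeR adjusted p = 5.05e-27) and higher by 4.27 ± 0.26 on the log2 scale in dry seed (1.61e-22). GA3OX2 was at 12.2, 5.87 and 14.4 CPM at 22 DAP, where wild type and abi3-12 were at 0, and at 0.896, 1.21 and 0.925 CPM in dry seed. It was at least 18.4-fold above wild type at 22 DAP (2.58e-08) and at least 3.80-fold in dry seed (0.00039). GA3OX1 was at 1.14, 0.556 and 1.24 CPM at 22 DAP, at least 1.66-fold higher (0.00362), a call that DESeq2 did not make (0.704) and that was lost without replicate number 1 in all groups (0.0771).

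GA20OX3 was at 214, 246 and 211 CPM in abi3-12 dog1-4 at 18 DAP against 41.2 to 85.5 CPM in wild type, and at 169, 146 and 153 CPM at 20 DAP against 0.371 to 11.3 CPM. It was higher by 2.02 ± 0.30 and by 5.08 ± 0.37 on the log2 scale (edgeR adjusted p = 7.55e-08 and 3.92e-19). In dry seed, at 14.3, 14.5 and 19.0 CPM, it did not overlap wild type and was not called (0.55 ± 0.32, 0.117), and the difference from wild type was smaller there than at 20 DAP by 4.53 ± 0.50 (1.45e-11), where 41.3% of all genes changed in effect. GA20OX2 was at 5.54, 5.16 and 6.08 CPM in dry seed, higher than wild type by 2.69 ± 0.37 (1.77e-09), and was called at all 5 stages. GA2OX6 was at 0, 0.157 and 0 CPM at 20 DAP, 374-fold lower (95% exact counting interval 103 to 3090, 8.08e-17), and at 0.580, 0.989 and 0.925 CPM in dry seed, lower by 1.99 ± 0.44 (6.27e-05). GA2OX2 was lower from 20 DAP on, by 1.73 ± 0.29, 0.96 ± 0.23, 1.29 ± 0.21 and, in dry seed, 1.07 ± 0.19 (4.87e-07, 0.000185, 1.08e-07 and 1.11e-06). With libraries scaled by their totals the change at 22 DAP was -0.13 and not called (0.64).

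Over 5 stages, 29 of 40 tests were called in abi3-12 dog1-4, 20 higher and 9 lower, against 63.7% of the tests of all genes, 33.8% higher and 29.9% lower. The background was 41.2%, 58.8%, 75.2% and 69.4% from 18 to 24 DAP, and 73.8% in dry seed. Among the weaker calls were GA3OX2 at 20 and 24 DAP (0.0203 and 0.00226), where a library was at 0, and GA20OX2 at 18 DAP (0.0362), where the groups overlapped. DESeq2 did not call GA3OX2 at 20 and 24 DAP (adjusted p = 0.151 and 0.0861). Nor did it call GA3OX4 at 22 DAP and in dry seed (0.629 and 0.634). Without replicate number 2 in all groups, GA20OX2 at 18 DAP was at 0.17 on the log2 scale (0.773). Without replicate number 3, GA3OX2 at 24 DAP had an adjusted p of 0.135, and at 20 DAP it had 0.107 without number 1 and 0.185 without number 2. GA3OX4 lost its call at 22 DAP without number 1 (0.0512) or 3 (0.06), and in dry seed without number 2 (0.0964). GA20OX3 lost it at 22 DAP without number 2 (0.0708). GA2OX6 lost it at 18 DAP without number 3 (0.0596) and at 24 DAP without number 2 (0.0703). Of the other pathway genes, 29 of 50 tests were called, 9 higher and 20 lower. In dry seed ELA2, a relative of ELA1, was called higher, at 0.315 CPM against 0 (0.0109), and GAMT1 lower, at 0 against 0.294 CPM (0.0159), both on a few counts per library. Storage proteins summed to 6563 to 11460 CPM in dry abi3-12 dog1-4 seed, under the 65440 to 71390 CPM of abi3-12 and the 47400 to 54440 CPM of wild type. Seed-coat markers summed to 29.9 to 32.3 CPM, above the 10.3 to 12.2 CPM of abi3-12 and the 10.2 to 11.6 CPM of wild type. Embryo markers summed to 63.5 to 65.6 CPM, next to 59.0 to 62.8 CPM in abi3-12 and 19.5 to 22.5 CPM in wild type. Their part was not tested.

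Set against abi3-12, abi3-12 dog1-4 asks what loss of DOG1 adds in that background. In dry seed GA20OX1 was higher by 3.61 ± 0.23 on the log2 scale (edgeR adjusted p = 5.01e-21), GA2OX2 by 2.83 ± 0.28 (5.64e-14) and GA20OX2 by 2.28 ± 0.34 (1.85e-08). GA3OX2 was at least 4.45-fold higher (0.000224). GA2OX2 thus stood between the 2 single mutants in dry seed, at 3.48, 4.01 and 3.79 CPM, with abi3-12 at 0.246 to 0.708 CPM and dog1-4 at 11.7 to 14.2 CPM. GA20OX3 was higher by 0.86 ± 0.32 (0.0151), a call lost without the third abi3-12 dog1-4 library (0.07). Over 5 stages, 24 of 40 tests were called, 22 higher and 2 lower, against 50.0%, 26.8% higher and 23.3% lower. By stage the background was 12.4%, 36.9%, 69.7% and 62.0% from 18 to 24 DAP, and 69.2% in dry seed. The 3-oxidases, at or near 0 in abi3-12, could hardly fall and are among the higher calls, so these counts do not test a direction. Of the other pathway genes 25 of 50 were called, 9 higher and 16 lower.

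The interaction of abi3-12 and dog1-4 in dry seed asks whether the joint effect differs from the sum of the separate ones on the log2 scale. It was 2.12 ± 0.35 for GA2OX2 (edgeR adjusted p = 9.79e-07), so GA2OX2 was higher in abi3-12 dog1-4 than the sum of both effects gives. It was called higher for GA2OX6 too (1.15e-06), but its size rests on the dog1-4 libraries at 0 and is not given as a fold. GA2OX6 was at 0 in dog1-4, at 1.05 to 1.31 CPM in abi3-12 and at 0.580 to 0.989 CPM in abi3-12 dog1-4. For GA20OX1 and GA20OX3 no interaction was called. In all 2 of 8 were called, against 37.3% of all genes, and 5 of 10 other pathway genes, all lower, ELA1 by 3.94 on the log2 scale.

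With cyp707a2 added, the 3-oxidases were at or near 0 while GA20OX1 and GA20OX3 were high. GA3OX2 at 22 DAP was at 0, 0 and 0.193 CPM in abi3-12 dog1-4 cyp707a2 against 12.2, 5.87 and 14.4 CPM in abi3-12 dog1-4, 177-fold lower (95% exact counting interval 48.8 to 1470, edgeR adjusted p = 8.05e-09). GA3OX1 was at 0 in all 15 libraries of the line, and at 22 DAP was at least 3.57-fold lower (0.00116), which DESeq2 did not call (0.669). GA20OX1 in dry seed was at 9.80, 8.56 and 9.10 CPM, below abi3-12 dog1-4 by 0.60 ± 0.17 (0.00185) and above wild type by 3.68 ± 0.27 (5.95e-18).

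GA20OX3 went the other way. It was at 49.2, 102 and 57.4 CPM at 22 DAP against 29.9, 21.0 and 33.4 CPM in abi3-12 dog1-4, and at 43.8, 38.3 and 36.1 CPM in dry seed against 14.3, 14.5 and 19.0 CPM. The groups did not overlap, and both differences were 1.3 ± 0.29 on the log2 scale (edgeR adjusted p = 6.76e-05 and 0.000105). Without replicate number 2 in all groups the difference at 22 DAP was 0.73 and not called (0.0758). GA2OX2 was lower by 1.35 ± 0.28 and by 1.38 ± 0.22 at these stages (2.15e-05 and 2.32e-07). GA2OX6 was at 0 in all libraries of 22 and 24 DAP and in 2 of 3 in dry seed, 13.6-fold lower in dry seed than in abi3-12 dog1-4 (95% exact counting interval 4.41 to 68.4, 9.96e-05). At 18 and 20 DAP edgeR called none of the 8 genes between these lines, with 1 and 3 at an unadjusted p under 0.05, where 6.46% and 5.83% of all genes were called. Over 5 stages 18 of 40 tests were called, 2 higher and 16 lower, against 39.3%, 18.2% higher and 21.0% lower. Those of 22 and 24 DAP and dry seed numbered 8, 4 and 6 of 8, against 67.9%, 53.7% and 62.4%. The 3-oxidases, which passed the filter in batch B only through mutant groups, are among the lower calls, so these counts do not test a direction. The call of lower GA20OX1 at 22 DAP (-0.36, 0.0495) was lost without replicate number 1 in all groups (-0.02, 0.954).

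Against wild type, 23 of 40 tests were called in abi3-12 dog1-4 cyp707a2, 15 higher and 8 lower, against 44.5%, 22.9% higher and 21.7% lower. By stage the background was 33.9%, 51.7%, 45.1% and 43.9% from 18 to 24 DAP, and 48.2% in dry seed. The GA20OX3 difference in dry seed minus that at 20 DAP was -2.94 ± 0.49 (edgeR adjusted p = 6.06e-06), where 19.9% of all genes changed in effect. All 15 higher calls were those of the 3 20-oxidases at all 5 stages, and the 8 lower ones were GA2OX2 and GA2OX6 from 20 DAP on. The GA20OX2 calls at 18 and 22 DAP were lost without replicate number 2 in all groups (0.108 and 0.175). Of the other pathway genes 22 of 50 were called against wild type, 9 higher and 13 lower, and 22 of 50 against abi3-12 dog1-4, 18 higher and 4 lower. In dry seed KS, of the early pathway, was higher than in wild type by 1.07 and AT5G58660 (GA2OX9) at -3.59 on the log2 scale. ELA1 was higher than in abi3-12 dog1-4 by 3.84 on the log2 scale in dry seed. Storage proteins summed to 52260 to 58180 CPM in dry seed of the line, against 6563 to 11460 CPM in abi3-12 dog1-4, and seed-coat markers to 12.6 to 14.1 against 29.9 to 32.3 CPM. Embryo markers summed to 54.3 to 57.0 CPM. Their part was not tested.

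In dry seed of aba2-1, edgeR called none of the 8 genes, with 2 at an unadjusted p under 0.05, where 15.8% of all genes were called. DESeq2 called none either, and 2 passed when aba2-1 and wild type were fitted alone. GA20OX3 was at 20.5, 19.3 and 20.0 CPM against 8.87, 12.0 and 11.8 CPM, without overlap (0.87 ± 0.33, edgeR adjusted p = 0.0593). GA2OX6 was at 1.67, 1.80 and 1.55 CPM against 3.48, 3.30 and 3.23 CPM, also without overlap (-0.99 ± 0.44, 0.12). None of the 10 other pathway genes tested was called. Dry aba2-1 seed had 90150 to 95960 CPM of storage proteins, above the 47400 to 54440 CPM of wild type.

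In dog1-4 aba2-1, GA20OX3 was at 35.2, 32.8 and 32.4 CPM, higher than wild type by 1.62 ± 0.32 on the log2 scale (edgeR adjusted p = 1.8e-05), and GA2OX6 was at 0 in all 3 libraries, at least 14.0-fold lower (4.45e-10). GA20OX1 was at 3.59, 2.86 and 2.12 CPM, higher by 2.02 ± 0.32 (3.15e-07), and GA2OX2 was higher by 0.70 ± 0.18 (0.000932). In abi3-12 aba2-1, GA2OX2 was at 1.29, 0.916 and 1.35 CPM, lower by 2.72 ± 0.23 (1.6e-16), GA2OX6 lower by 2.47 ± 0.48 (1.29e-05), and GA20OX1 at 4.24, 3.31 and 4.34 CPM, higher by 2.47 ± 0.30 (1.65e-10). In abi3-12 dog1-4 aba2-1, GA20OX1 was at 14.3, 13.0 and 11.5 CPM, higher by 4.17 ± 0.26 (6.82e-22), and GA3OX2 at 0.882, 0.626 and 0.507 CPM, at least 2.53-fold higher (0.00247, with 0.059 from DESeq2). GA20OX3 in that line, at 5.66, 6.95 and 8.24 CPM, was below all wild-type libraries but was not called (-0.65 ± 0.35, 0.0842).

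Called were 4 of 8 genes in dog1-4 aba2-1, against 48.4% of all genes, 3 of 8 in abi3-12 aba2-1, against 61.5%, and 6 of 8 in abi3-12 dog1-4 aba2-1, against 75.3%. Of the 6, GA3OX4 lay at 0.221 to 0.253 CPM against 0 (0.0176), a call that DESeq2 did not make (0.633) and that was lost without any 1 of the replicate numbers (0.0529 to 0.0769). GA2OX2, at 5.44, 5.52 and 5.70 CPM (-0.51 ± 0.19, 0.0133), lost its call without the first (0.0589) or second (0.0562) library of the line, and changed sign when libraries were scaled by their totals (0.05). Of the 10 other pathway genes tested, 4, 6 and 7 were called. ELA1 fell by 1.59 in dog1-4 aba2-1, where CPS was at 2.06 against 0.204 CPM, and fell by 6.26 in abi3-12 dog1-4 aba2-1 on the log2 scale, where ELA2 was at 0.232 CPM against 0. In abi3-12 aba2-1 GAMT1 was called lower, at 0 against 0.294 CPM. The storage proteins came to 80170 to 98480 CPM in dog1-4 aba2-1, to 30800 to 38940 CPM in abi3-12 aba2-1 and to 14260 to 18680 CPM in abi3-12 dog1-4 aba2-1. Embryo markers summed in these lines to 31.6 to 32.7, 52.1 to 55.8 and 57.3 to 63.0 CPM, all above wild type. Seed-coat markers reached 38.0 to 39.8 CPM and endosperm markers 1.96 to 2.28 CPM in abi3-12 dog1-4 aba2-1, where wild type had 10.2 to 11.6 CPM and 0. The part of these markers in the calls was not tested. The interaction of abi3-12 and aba2-1 was called for GA2OX2, at 1.34 ± 0.39 (edgeR adjusted p = 0.0136), 1 of 8 genes against 14.2% of all genes, and was lost without the third abi3-12 library (1.04, 0.0851). That of dog1-4 and aba2-1 was called by edgeR for none of 8, with 2 at an unadjusted p under 0.05 and 1 called by DESeq2, against 1.01% of all genes. In it GA20OX1 came nearest, at -1.54 ± 0.45 (0.0757).

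In L2-1, GA20OX1 was at 0 in all 3 libraries of dry seed against 0.549, 1.02 and 0.538 CPM, at least 2.62-fold lower (edgeR adjusted p = 0.000245). GA2OX2 was at 5.36, 4.37 and 3.83 CPM, below all wild-type libraries, and lower by 0.81 ± 0.20 on the log2 scale (0.0221). These were 2 of 8 called, both lower, where 1.01% of all genes were called and 0.722% were called lower. GA20OX3, at 3.70, 4.37 and 4.58 CPM, lay under the 8.87 to 12.0 CPM of wild type and was not called (-1.36 ± 0.38, 0.0599). The GA2OX2 call was lost without the second (0.119) or the third (0.0757) wild-type library or the second (0.117) or the third (0.142) L2-1 library, and that of GA20OX1 when replicate number 2 was left out of all groups (0.118). No other pathway gene of the 10 tested was called.

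**Figure D4:**
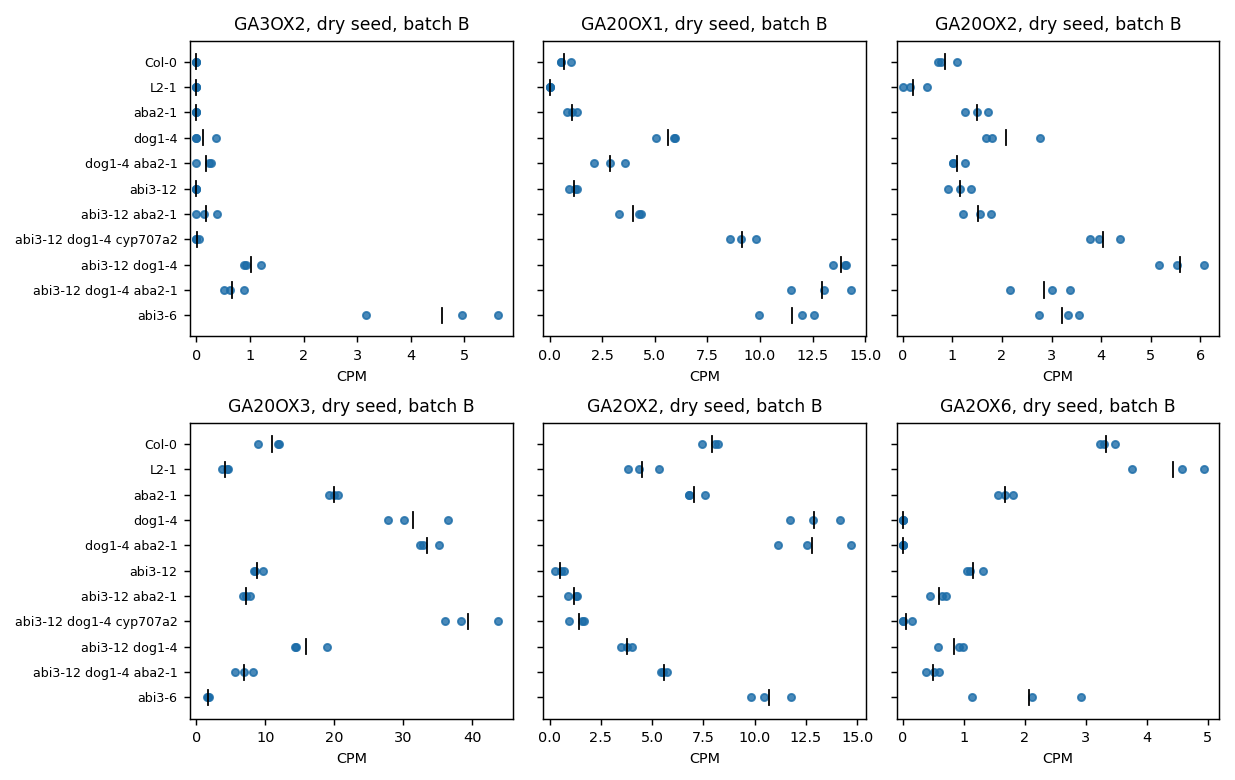
Levels of 6 genes in dry seed of all 11 genotypes in batch B, in CPM, with a point per library and a bar at each group mean. GA20OX1 ran from 0 in L2-1 to 13.5 to 14.1 CPM in abi3-12 dog1-4. GA2OX6 was at 0 in every library of dog1-4 and dog1-4 aba2-1.

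Across the dry seed of batch B, the order of GA20OX1 was abi3-12 dog1-4 (13.9 CPM), abi3-12 dog1-4 aba2-1 (12.9), abi3-6 (11.5), abi3-12 dog1-4 cyp707a2 (9.15), dog1-4 (5.63), abi3-12 aba2-1 (3.96), dog1-4 aba2-1 (2.86), abi3-12 (1.14), aba2-1 (1.07), wild type (0.701) and L2-1 (0). The first 3 overlapped each other in turn, as did abi3-12 aba2-1 with dog1-4 aba2-1, and abi3-12, aba2-1 and wild type, while the other neighbours did not overlap. GA20OX3 ran in another order, from abi3-12 dog1-4 cyp707a2 (39.4 CPM), dog1-4 aba2-1 (33.5) and dog1-4 (31.4) through aba2-1 (19.9) and abi3-12 dog1-4 (15.9) to wild type (10.9). In this upper part dog1-4 overlapped both dog1-4 aba2-1 and, with a single library, abi3-12 dog1-4 cyp707a2. Below wild type lay abi3-12 (8.78), abi3-12 aba2-1 (7.19), abi3-12 dog1-4 aba2-1 (6.95), L2-1 (4.22) and abi3-6 (1.71), of which abi3-12 overlapped wild type, and the abi3-12 aba2-1 and abi3-12 dog1-4 aba2-1 groups each other. GA2OX2 was highest in dog1-4 (12.9 CPM) and dog1-4 aba2-1 (12.8), which overlapped, and lowest in abi3-12 (0.506), apart from all others.

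Over the 30 comparisons of a mutant line with wild type, which share their wild-type libraries within a stage and batch, 138 of 240 tests of these genes were called, 57.5%, where 47.4% of the tests of all genes were. Of the 138, 93 were higher and 45 lower, and of the 296575 calls over all genes, 157254 were higher and 139321 lower. GA20OX1 was called 28 times, 27 of them higher, GA20OX2 18 times, 17 higher, and GA20OX3 19 times, 15 higher. Wild type was at 0 of GA20OX1 at 18 DAP in both batches and at 20 DAP in batch B. At 16, 20 and 22 DAP in batch A it held at most 3 counts per library. A lower call of GA20OX1 was hardly possible at these stages. The 3-oxidases GA3OX1, GA3OX2 and GA3OX4 were called 7, 12 and 8 times, all higher but 1 of GA3OX4. GA3OX1 and GA3OX2 were at 0 in nearly all wild-type libraries, and GA3OX4 in all those of batch B, so a lower call was hardly possible and their direction is no result. GA2OX6 was called 22 times, always lower, and GA2OX2 24 times, 8 higher and 16 lower. All 8 higher calls of GA2OX2 were in abi3-6, dog1-4 and dog1-4 aba2-1. Scaling libraries by their totals moved the median log2 change of all genes by -0.54 to 1.26 over 51 comparisons and turned 2 of 220 called differences, both named above. Over abi3-12, dog1-4, abi3-12 dog1-4 and the line with cyp707a2, 9 of 32 effects differed between dry seed and 20 DAP, against 19.6% of all tests.

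**Figure D5:**
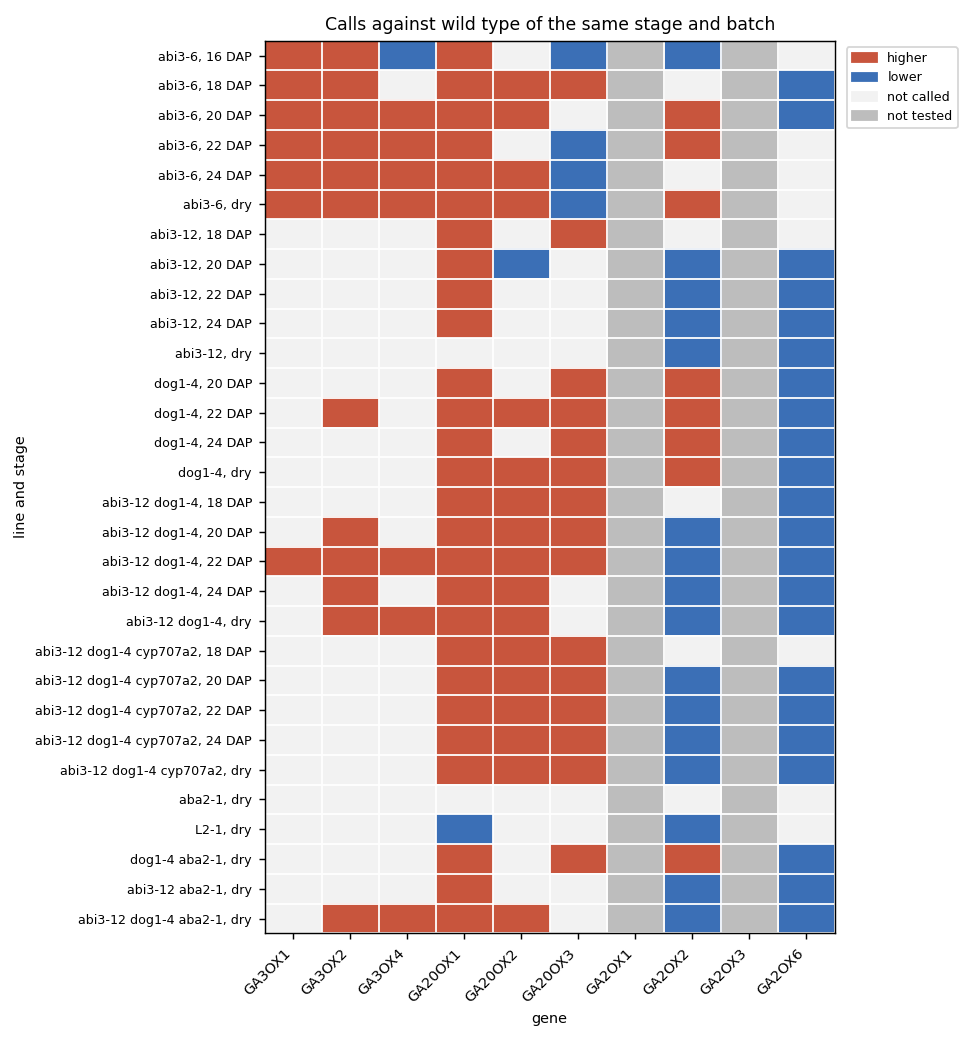
Calls of the edgeR quasi-likelihood test at an adjusted p under 0.05 for each of the 10 genes (columns) in each line and stage against wild type of the same stage and batch (rows), with red for higher, blue for lower, pale for not called and grey for genes that failed the filter on low counts. The GA20OX1 column is red in 27 of 30 rows and the GA2OX6 column blue in 22. In several of the red rows GA20OX1 was at or near 0 in wild type, so a lower call was hardly possible there.

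Across the 31 group means of batch B, the genes of a step varied together to different degrees, given here as a description of points that share libraries and wild-type stages. Pearson's r was taken on log2 CPM with a prior count of 2. Between GA3OX1 and GA3OX4 it was 0.924, between GA3OX1 and GA3OX2 0.855, between GA20OX2 and GA20OX3 0.697, and between GA2OX2 and GA2OX6 0.048. The 3-oxidases were at 0 in most libraries, so their r rests on shared zeros and the few groups where they were read. GA2OX6 ran against GA20OX1 (-0.700) and GA20OX3 (-0.660). The 3 genes of the whole table most like GA3OX2 were CYP71B19, a cytochrome P450 (0.970), AT2G45180 (0.959) and MKK6, a mitogen-activated protein kinase kinase (0.958). Those most like GA2OX2 were ABCI21, of the ABC transporter family (0.931), AT1G18460 (0.901) and ABCC13, of the same family (0.819), and those most like GA20OX3 were AT1G54730 (0.889), the kinetochore gene MIS12 (0.886) and AT4G27250 (0.869). CYP71B19 was at 5.28 CPM in abi3-12 dog1-4 at 22 DAP, at 4.34 CPM in dry abi3-6 seed and at 0 in dry wild type and dry abi3-12. Its likeness to GA3OX2 thus rests partly on shared zeros as well.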

How the data were processed

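The 10 genes and the lists of other pathway genes and markers were chosen with earlier results of these data known. The authors deposited a table of raw read counts per gene for 123 libraries. Per the labels' protocols, the libraries were strand-specific and poly(A)-selected. The submitters' processing notes name HISAT2 2.1.0, StringTie 1.3.2, Cufflinks, SAMtools and the TAIR10 genome, and how the counts were made from them is not given in the sources used here. Counts were tested with edgeR 4.0.16 in R 4.3.3 (TMM factors, filterByExpr with a minimum count of 10, quasi-likelihood F test, Benjamini-Hochberg adjustment over all genes tested). The fit had a coefficient per group, and batches A (31 libraries, 20414 genes) and B (92 libraries, 20912 genes) were fitted apart. Wild type of both batches was fitted together over the 5 shared stages to compare courses (17634 genes). Standard errors are the log2 change divided by the root of the F statistic. Ratios with an exact interval stand where a group's libraries held 3 counts or fewer, and for these genes no fitted fold is given. The scripts were tested on simulated data. Of the pathway list, the called genes with the largest fitted rise and fall are named, a rank that measures no size where a group is at 0. Lengths per kilobase are exon lengths of RefSeq's TAIR10.1, which also gave the promoters. All 10 loci matched. Alternatives were DESeq2 1.42.0, RLE factors, library totals, no filter, the compared groups alone, a replicate block, leaving out replicates or libraries, and, chosen after seeing the data, leaving out the 6 libraries of batch B under 5000000 counts.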

Additional observations from a re-analysis of the deposited data

Results flagged for a closer look

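The change from 18 DAP to dry seed in wild type differed between the batches for 3 of the 4 genes that passed the filter in the joint fit, where 16.6% of all genes differed (edgeR quasi-likelihood test). The batch B change minus the batch A change was -2.55 on the log2 scale for GA20OX2 (adjusted p = 0.0317), -2.02 for GA20OX3 (0.0296) and 2.44 for GA2OX6 (0.00798). Leaving out a replicate number left 0 to 2 of these called.

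The difference from wild type was not the same in dry seed as at 20 DAP for 9 of 32 tests in 4 lines, against 19.6% of the tests of all genes. For GA20OX1 the dry effect minus the 20 DAP effect was -6.81 for abi3-12 (edgeR adjusted p = 0.000118), -5.41 for dog1-4 (0.00761) and -6.95 for abi3-12 dog1-4 (1.44e-06). For abi3-12 dog1-4 cyp707a2 it came to -7.19 (2.65e-06). Wild type was at 0 at 20 DAP, so these sizes of GA20OX1 depend on the fit's handling of zeros. GA20OX3 had -2.29 for dog1-4 (0.00174), -4.53 for abi3-12 dog1-4 (1.45e-11) and -2.94 with cyp707a2 added (6.06e-06). The value for GA2OX2 was -1.99 in abi3-12 (0.00474), and that for GA2OX6 was 6.29 in abi3-12 dog1-4 (7.44e-08). The size for GA2OX6 also depends on the fit's handling of zeros, as that line was at or near 0 at 20 DAP. Both calls in dog1-4 and that of GA2OX2 in abi3-12 were lost when some replicate number was left out of all groups (adjusted p up to 0.172, 0.128 and 0.0937). At 20 DAP the wild-type libraries of batch B themselves spread from 0.371 to 11.3 CPM of GA20OX3, and their storage proteins from 415700 to 633400 CPM.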

How the results depend on the processing

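Of 220 called differences of these genes, DESeq2 kept 194 (26 missed the threshold, mostly 3-oxidases against groups at 0), RLE factors 219, no filter 218, and library totals 213, with 5 past the threshold no more and 2 reversed, abi3-6 at 16 DAP for GA20OX3 (0.11) and abi3-12 dog1-4 aba2-1 for GA2OX2 (0.05). The compared groups alone kept 183 of 190 that could be fitted, and leaving out the shallow libraries 173 of 177. Of 1409 results for called differences in fits that left out a replicate or library, many from the same fit, 1292 kept the call. Same-numbered replicates had a median r of 0.023 over 85 pairs, 11 over 0.1, and every pair was over 0.1 in 1 of 30 comparisons. That one, abi3-12 dog1-4 cyp707a2 at 24 DAP (r of 0.132 to 0.171), kept its calls under the block. The replicate block kept 219 of the 220, all but GA3OX2 in dog1-4 at 22 DAP (0.0584), and moved no count of calls by more than 1.5 times.

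With the compared groups alone, the count of genes called in dry seed went from 0 to 2 in aba2-1, from 3 to 5 in abi3-12 aba2-1, from 2 to 4 for the interaction of abi3-12 and dog1-4, from 1 to 3 for that of abi3-12 and aba2-1, and from 0 to 2 for that of dog1-4 and aba2-1. With DESeq2 it was 3 in place of 6 in abi3-12 dog1-4 aba2-1, and 2 and 1 for the last 2 interactions. Library totals gave 2 for that of abi3-12 and aba2-1, and leaving out the shallow libraries 1 in aba2-1. Leaving out a replicate gave 2 to 4 for wild-type dry seed against 18 DAP in batch A, 0 to 2 in L2-1, 0 to 1 for the interactions of aba2-1 with abi3-12 and with dog1-4, and 0 to 2 for the wild-type change between batches. Genes under about 1 CPM rest on a few counts per library, which limits GA3OX1, GA3OX4 and, in wild type, GA20OX1. The causes of these shifts were not tested.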
